A study of Saccharomyces cerevisiae with 6 samples.

Results

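The nuclear genes of the respiratory chain and the ATP synthase were compared between a flor strain and a wine strain of the budding yeast Saccharomyces cerevisiae. The set comprised the NADH and lactate dehydrogenases that feed electrons into the chain, complexes II, III and IV, the subunits, assembly factors and inhibitor of the ATP synthase, and the HAP activator of respiration genes. Its rule used gene symbols and no measured value, but the set was chosen with earlier results of these data known. All 45 listed genes were measured, each by 1 probe, among 6226 features (4060 named genes and 2166 unnamed probes). The flor strain, P3_Kan, is the haploid P3-D5 of mating type alpha and carries a KanMX drug-resistance cassette. The wine strain, K1_Kan, is a haploid of mating type a, and the labels do not explain its Kan. Each strain was represented by 3 shaken cultures labelled as biological replicates, grown at 28 °C in a synthetic wine-like medium and collected at an optical density of 1. Shaken flor cultures form no velum (the floating film), per the labels. A single haploid stands for each kind of yeast, and strain and mating type differ together. Mating-type genes followed the labels: in the flor strain all 4 alpha-specific genes were higher (log2 changes of 3.44 to 7.17) and all 7 a-specific genes lower (−1.20 to −4.79).

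In yeast, which lacks a proton-pumping complex I, single-protein dehydrogenases pass electrons from NADH to ubiquinone. Complex III hands them to cytochrome c and complex IV to oxygen, and the ATP synthase uses the resulting proton gradient to make ATP. The chain is assembled from nuclear and mitochondrial gene products, and many of its nuclear genes are induced when fermentable sugar runs out, through the CCAAT-binding HAP complex. Flor yeasts live by oxidising ethanol and glycerol in their floating film on wine, whereas wine yeasts ferment sugar.

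The complexes did not move together. In the flor strain most listed subunits of complex IV were higher. The NADH dehydrogenase genes NDE1 and NDI1 and the ATP synthase assembly genes ATP10, ATP11 and ATP12 were lower. Of the listed ATP synthase subunits only ATP20, which was higher, passed the test. The HAP genes split, with HAP4 higher and HAP2 and HAP5 lower. Over all 45 genes 11 were higher and 10 lower at a limma adjusted p under 0.05, and 24 did not pass. The shares over all features were 20.5% higher and 23.6% lower, or 44.1% in either direction, and the 46.7% of these genes that passed lay near that background. Their median log2 change, flor minus wine, was 0.06 (−0.02 over all features), with single genes between −1.19 and 0.71. Flor and wine arrays did not overlap for 16 genes with higher and 13 with lower flor values, where 56.1% of all features did not overlap (25.7% with higher and 30.4% with lower flor values). Values below are log2 intensities listed for replicates 1, 2 and 3 of a strain, ± is the SD over the 3 arrays of a strain, and a fold is followed by its 95% interval. Fewer cells with a transcript and less of it per cell cannot be told apart in these bulk cultures.

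**Figure D1:**
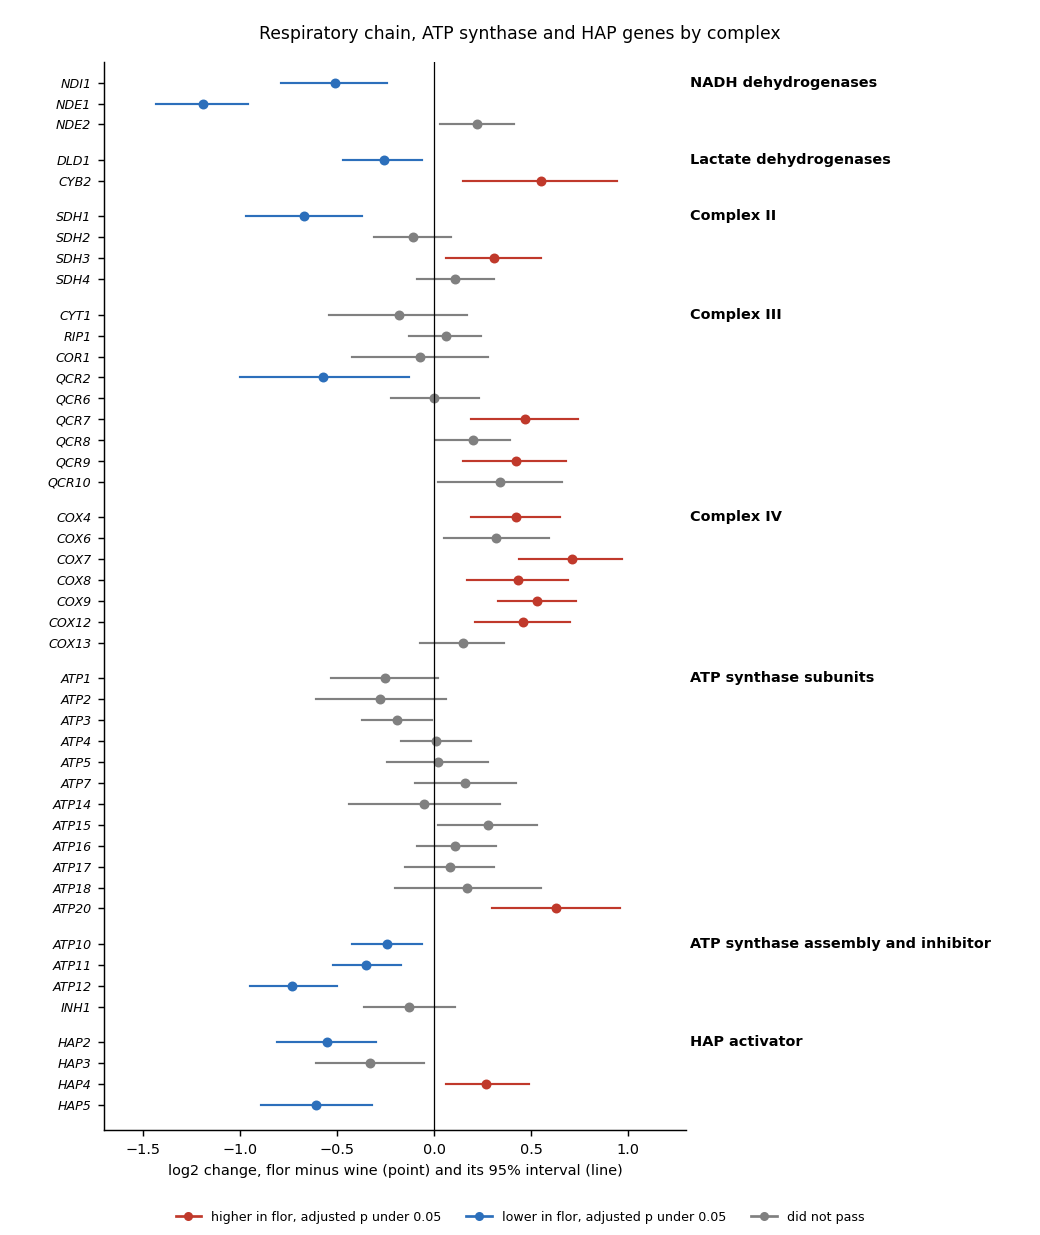
Log2 change (flor minus wine) of each of the 45 genes on the horizontal axis, grouped by complex, with points for the estimates and lines for the 95% intervals. Red marks genes higher and blue genes lower in the flor strain at an adjusted p under 0.05, and grey genes did not pass. The 7 complex IV genes lie to the right of 0, while NDE1 is farthest to the left at −1.19.

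Flor replicate 1 stood apart from the other flor arrays. Pearson correlations across features were 0.9877 to 0.9971 among flor arrays, 0.9971 to 0.9975 among wine arrays and 0.9372 to 0.951 between strains. Among the 45 genes, 25 were higher and 17 lower in flor replicate 1 than in both other flor replicates. That count was not made over all features, so whether these genes differ from others in it was not tested. The median SD of a gene was 0.18 among flor and 0.09 among wine arrays. The labels give each hybridisation an array number, called slide here, with flor replicate 3 and wine replicate 2 on slide 1 and the others on slide 2. For all 21 genes that passed the strains did not overlap, so their direction was bound to be the same on both slides. That agreement is therefore no check on a slide effect. Of all 45 genes, 36 had the same direction on both slides. That number includes all genes without overlap, 16 with higher and 13 with lower flor values, whose direction was fixed in the same way. It was not set against all features. The deviations of flor replicate 1 also went with gene length, which is described after the complexes.

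The external NADH dehydrogenase gene NDE1 (YMR145C) had the largest change of the set. Its product faces the intermembrane space and oxidises cytosolic NADH. It gave 10.37, 10.72 and 10.64 on the flor arrays, against 11.68, 11.79 and 11.84 on the wine arrays. Every flor value lay below every wine value, and the flor mean of 10.58 ± 0.18 against the wine mean of 11.77 ± 0.08 made the level 2.29-fold lower (1.94 to 2.69, adjusted p = 3.4e-05). NDE1 passed in all 20 alternative settings, including a test against a log2 change of 0.5. It was the one gene of the set to do so.

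NDI1 (YML120C), the internal enzyme that oxidises NADH in the matrix, gave 11.24, 11.68 and 11.67 on the flor arrays, against 12.03, 12.02 and 12.07 on the wine arrays. The strains did not overlap, and the log2 change was −0.51 (SE 0.12, adjusted p = 0.0086), a level 1.43-fold lower (1.18 to 1.72). On slide 2 alone, with 2 arrays per strain, it did not pass (adjusted p = 0.053). NDE2 (YDL085W), the second external enzyme, gave 8.85, 8.93 and 8.88 in flor, against 8.54, 8.71 and 8.75 in wine. Its flor values lay above all wine values, by a log2 change of 0.22 that did not pass (adjusted p = 0.058). Without flor replicate 1 the adjusted p of NDE2 was 0.028, at a change of 0.24. NDE1 and NDE2 are related in sequence, and whether their probes separate them was not tested. The plot of array values shows these genes together with the HAP genes.

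The lactate dehydrogenase genes changed in opposite directions. CYB2 (YML054C), the L-lactate dehydrogenase (cytochrome b2) that reduces cytochrome c in the intermembrane space, gave 11.35, 12.09 and 12.02 in the flor strain, against 11.24, 11.31 and 11.28 in the wine strain. Flor replicate 1 lay close to the wine arrays and the other flor replicates well above them. The level was 1.46-fold higher (1.11 to 1.92) in the flor strain (adjusted p = 0.031), and CYB2 passed without flor replicate 1 but not when any other single array was left out (adjusted p = 0.083 to 0.11). DLD1 (YDL174C), the D-lactate dehydrogenase of the inner membrane, gave 11.33, 11.61 and 11.54 in flor, against 11.75, 11.73 and 11.78 in wine. The log2 change of DLD1 was −0.26 (adjusted p = 0.043), with no overlap. The DLD1 call was lost without any single array other than flor replicate 2 (adjusted p = 0.055 to 0.13).

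Complex II, the succinate dehydrogenase shared by the respiratory chain and the citric acid cycle, had 1 gene higher and 1 lower of 4. The 50% that passed lay near the 44.1% of all features, and the median log2 change was 0.00. SDH1 (YKL148C), the flavoprotein subunit that oxidises succinate, gave 13.11, 13.55 and 13.47 in flor, against 13.89, 14.23 and 14.02 in wine. All flor values were under all wine values, and means of 13.38 ± 0.23 in flor against 14.04 ± 0.17 in wine made SDH1 1.59-fold lower (1.29 to 1.96, adjusted p = 0.0037). SDH3 (YKL141W), a cytochrome b membrane anchor, gave 14.42, 14.07 and 14.17 in flor, against 14.05, 13.84 and 13.85 in wine. Its log2 change of 0.31 was just past the threshold (adjusted p = 0.048). The SDH3 call ended under quantile normalization (adjusted p = 0.070) and without any single array other than flor replicate 2 (adjusted p = 0.050 to 0.16), with a change of 0.20 without flor replicate 1. The iron-sulfur subunit gene SDH2 and the other anchor gene SDH4 had changes of −0.11 and 0.11 with overlapping strains (adjusted p = 0.34 and 0.35). The genome holds close relatives of SDH1, SDH3 and SDH4 that were not analysed here, so signals of these probes may include theirs.

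Complex III, the cytochrome bc1 complex, had 2 genes higher and 1 lower of 9. The 33.3% that passed was below the 44.1% of all features (20.5% higher and 23.6% lower). Its median of 0.06 was small beside its range of −0.57 to 0.47. The small subunit gene QCR7 (YDR529C) gave 13.84, 13.48 and 13.38 in flor, against 13.03, 13.19 and 13.06 in wine, a level 1.38-fold higher (1.14 to 1.68, adjusted p = 0.014). QCR9 (YGR183C), another small subunit, gave 13.30, 12.92 and 12.90 in flor, against 12.71, 12.64 and 12.52 in wine, and was 1.33-fold higher (1.11 to 1.61, adjusted p = 0.020). In both genes flor replicate 1 was the highest array and the strains did not overlap. QCR2 (YPR191W), one of the large core proteins, went the other way, with 11.13, 11.93 and 11.89 in flor, against 12.13, 12.22 and 12.31 in wine. Flor replicate 1 was far below the other flor arrays, the flor SD of 0.45 was the largest of the 45 genes, and the level was 1.48-fold lower (1.09 to 2.00, adjusted p = 0.040). Without flor replicate 1 the QCR2 change was −0.31 and still passed (adjusted p = 0.0062). Leaving out wine replicate 1, 2 or 3 ended the QCR2 call (adjusted p = 0.076, 0.11 and 0.12), as did wine replicate 1 or 3 for QCR7 (0.055 and 0.052) and wine replicate 2 or 3 for QCR9 (0.061 and 0.081).

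The redox-active subunits of complex III that are nuclear-encoded, and its remaining listed subunits, did not pass. Cytochrome c1 (CYT1) had a log2 change of −0.18 (95% interval −0.54 to 0.17), the Rieske iron-sulfur protein gene RIP1 of 0.06 (−0.13 to 0.24), the core protein gene COR1 of −0.07 (−0.42 to 0.28) and the acidic subunit gene QCR6 of 0.00 (−0.22 to 0.23). QCR8 (0.20) and QCR10 (0.34) had flor values above all wine values at an adjusted p of 0.081 each. On the plot by complex the small subunits QCR7 to QCR10 lie at positive values and both core proteins below 0. With the trend on gene length taken out, QCR8 was at 0.04, QCR10 at 0.17 and COR1 at 0.00, and none passed. QCR7 (0.28), QCR9 (0.23) and QCR2 (−0.57) kept their calls in that setting.

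Complex IV, cytochrome c oxidase, had 5 of 7 measured nuclear genes higher in the flor strain and none lower, against 20.5% higher over all features. All 7 genes are under 500 bp, so complex and gene length coincide here. Of all named genes under 500 bp, 27.7% were higher and 12.7% lower. The median log2 change of complex IV was 0.43, on slide 1 alone 0.35 and on slide 2 alone 0.51. With the trend on gene length taken out it was 0.34. All 7 genes encode small subunits that surround the mitochondrially encoded catalytic core. COX7 (YMR256C) gave 14.38, 14.13 and 14.08 in flor, against 13.62, 13.55 and 13.30 in wine, and was 1.63-fold higher (1.36 to 1.96, adjusted p = 0.0013). COX9 (YDL067C) gave 13.21, 13.06 and 12.95 in flor, against 12.51, 12.59 and 12.54 in wine, and was 1.44-fold higher (1.25 to 1.65, adjusted p = 0.0015). In both genes the lowest flor array exceeded the highest wine array.

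COX12 (YLR038C) gave 13.06, 12.70 and 12.72 in flor, against 12.33, 12.38 and 12.40 in wine, a log2 change of 0.46 (SE 0.11, adjusted p = 0.0083). COX8 (YLR395C) gave 12.79, 12.40 and 12.38 in flor, against 12.10, 12.10 and 12.07 in wine, with a change of 0.43 (adjusted p = 0.015). COX4 (YGL187C) gave 12.97, 12.63 and 12.65 in flor, against 12.31, 12.30 and 12.37 in wine, with a change of 0.42 (adjusted p = 0.0094). Flor replicate 1 was the highest array in each of these genes, and flor replicates 2 and 3 were nearly equal and still above the wine arrays. Of the genes that did not pass, COX6 had a change of 0.32 with no overlap (adjusted p = 0.056) and COX13 of 0.15 with overlap (adjusted p = 0.24). Without flor replicate 1, 5 genes of complex IV passed, and with any other array left out 4 to 6 did, the lowest count being that without wine replicate 3, when COX8 was lost (adjusted p = 0.054).

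**Figure D2:**
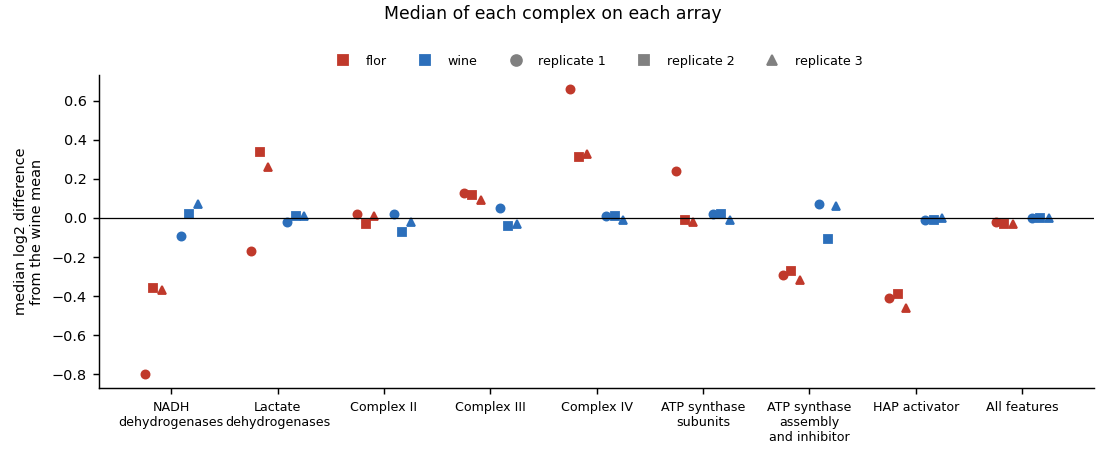
Median, over the genes of each complex, of the log2 difference of each array from the wine mean of the gene. Red symbols are flor arrays and blue symbols wine arrays, with circles, squares and triangles for replicates 1, 2 and 3. For complex IV flor replicate 1 lies at 0.66 and the other flor replicates at 0.31 and 0.33, and for the HAP genes the flor arrays lie between −0.46 and −0.39.

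Of the 12 ATP synthase subunits, ATP20 alone passed, and the median was 0.05. ATP20 (YPR020W), subunit g, which helps the enzyme form dimers, gave 12.89, 12.37 and 12.36 in flor, against 11.93, 12.02 and 11.77 in wine. The flor arrays were above all wine arrays, and the level was 1.55-fold higher (1.23 to 1.95, adjusted p = 0.0077). Among the subunits of the catalytic F1 head, the alpha and beta subunit genes ATP1 and ATP2 had changes of −0.25 (95% interval −0.53 to 0.02) and −0.28 (−0.61 to 0.06), and the gamma subunit gene ATP3 of −0.19 (−0.37 to −0.01, adjusted p = 0.084). The delta subunit gene ATP16 (0.11) and the epsilon subunit gene ATP15 (0.28, adjusted p = 0.073) had positive values that did not pass either. With the trend on gene length taken out, ATP15 passed (adjusted p = 0.0080).

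The stalk and membrane subunit genes ATP4, ATP5, ATP7, ATP14, ATP17 and ATP18 had log2 changes between −0.05 and 0.17 and overlapping strains. For ATP4 the 95% interval ran from −0.17 to 0.19 and for ATP17 from −0.15 to 0.31. ATP14 was at 11.11, 10.39 and 10.44 in flor, against 10.62, 10.73 and 10.74 in wine, so that flor replicate 1 alone lay above the wine arrays. Without that array ATP14 was lower in the flor strain by a change of −0.28 (adjusted p = 0.0077). Across the subunits the 8.33% that passed was below the 44.1% of all features, a description with no test.

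Of the 3 listed assembly factors and the inhibitor of the enzyme, ATP10, ATP11 and ATP12 were lower and INH1 did not pass, against 23.6% lower over all features. A further F1 assembly factor from the wider lists, FMC1, had a change of −0.30 with overlapping strains that did not pass (adjusted p = 0.068). ATP12 (YJL180C), the chaperone of the alpha subunit, gave 8.79, 8.63 and 8.82 in flor, against 9.48, 9.32 and 9.62 in wine. With means of 8.75 ± 0.11 in flor against 9.48 ± 0.15 in wine, ATP12 was 1.65-fold lower (1.41 to 1.94, adjusted p = 0.0005). ATP11 (YNL315C), the chaperone of the beta subunit, gave 10.41, 10.34 and 10.33 in flor, against 10.76, 10.63 and 10.73 in wine, and was 1.27-fold lower (1.13 to 1.43, adjusted p = 0.0063). For both chaperones the strains were clearly separate and flor replicate 1 did not stand apart.

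ATP10 (YLR393W), needed to build the membrane part of the enzyme, gave 6.36, 6.48 and 6.40 in flor, against 6.74, 6.65 and 6.57 in wine. These are dim values on an array whose lowest value was 5.29. The change of −0.24 (adjusted p = 0.039) depended on flor replicate 3 and on each wine replicate, since leaving out any of these ended the call (adjusted p = 0.058 to 0.15). INH1, the inhibitor that blocks ATP hydrolysis by the enzyme, overlapped between strains, with a change of −0.13 (adjusted p = 0.36).

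The HAP complex binds CCAAT boxes through Hap2, Hap3 and Hap5, and Hap4 carries the activation domain and is the subunit whose abundance is regulated by carbon source. HAP2 (YGL237C) gave 7.33, 7.78 and 7.57 in flor, against 8.11, 8.11 and 8.13 in wine, and was 1.47-fold lower (1.23 to 1.75, adjusted p = 0.0042). HAP5 (YOR358W) gave 7.36, 7.83 and 7.80 in flor, against 8.25, 8.32 and 8.24 in wine, and was 1.52-fold lower (1.25 to 1.85, adjusted p = 0.0043). Each had all flor values under all wine values, with flor replicate 1 the lowest.

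HAP3 (YBL021C) gave 9.56, 9.09 and 9.14 in flor, against 9.63, 9.58 and 9.59 in wine. Its flor values were also below all wine values, flor replicate 1 narrowly so, and the change of −0.33 did not pass (adjusted p = 0.055). Without flor replicate 1 the change of HAP3 was −0.48 and passed (adjusted p = 0.00014), so that 3 HAP genes were then lower. HAP4 (YKL109W) gave 11.06, 11.25 and 11.12 in flor, against 10.76, 10.84 and 11.00 in wine. The strains were separated by a small gap, and HAP4 was 1.21-fold higher (1.05 to 1.40, adjusted p = 0.039) in the flor strain. The HAP4 call was lost with slide as a block (adjusted p = 0.060). It was also lost on leaving out flor replicate 2 (0.11), flor replicate 3 (0.082), wine replicate 1 (0.15) or wine replicate 2 (0.12), all as adjusted p.

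**Figure D3:**
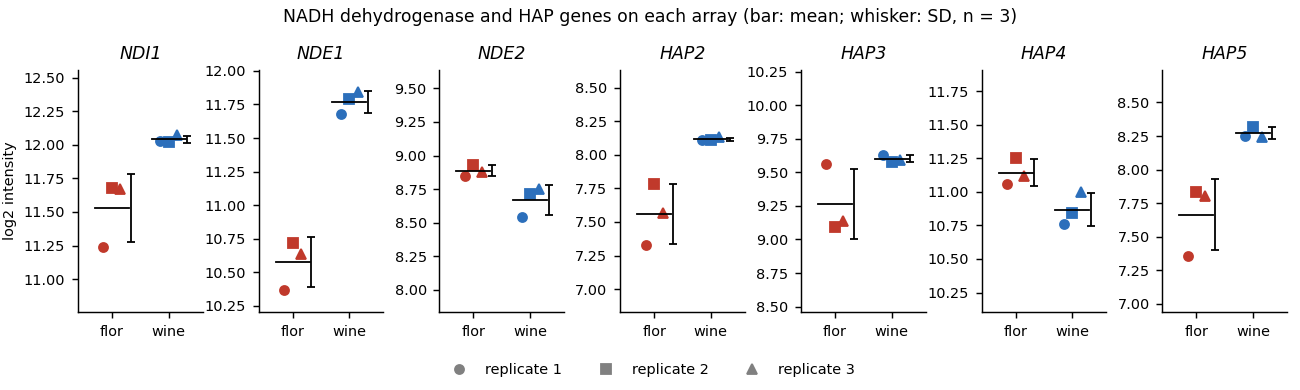
Log2 intensity of the 3 NADH dehydrogenase genes and the 4 HAP genes on each array, flor at the left and wine at the right of each panel, with circles, squares and triangles for replicates 1, 2 and 3, a bar for the mean and a whisker for the SD (n = 3). Each panel has its own axis of equal span. The gap between strains is widest for NDE1, at 10.58 against 11.77. Flor replicate 1 is highest among the flor arrays in HAP3 and lowest in every other panel, by little in NDE2 and HAP4.

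Of the 21 genes that passed, 7 kept their call in all 18 alternatives run at the same threshold: NDE1, SDH1, ATP12 and HAP5, which were lower, and COX7, COX9 and ATP20, which were higher in the flor strain. For HAP5 that excludes removal of the dimmest 50% of features, which took it out of the test. Another 5 (NDI1, ATP11, HAP2, COX4 and COX12) lost it on slide 2 alone, and 9 lost it in other settings. With single arrays left out, 6 to 11 genes were higher and 7 to 11 lower, the fewest higher without wine replicate 3 and 7 without wine replicate 1 or 2. Leaving out 1 wine array also cut the shares over all features, to 15.5% to 16% higher and 17.3% to 17.6% lower. With all arrays those shares were 20.5% and 23.6%. A call lost in this way does not by itself show that the change rests on that array.

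Gene length moved with these changes. Lengths are those of the R64 reference, from start to stop codon and with introns. Of the 20 genes under 500 bp, 8 were higher and none was lower, with a median log2 change of 0.30. Of the 14 genes from 500 to under 1000 bp, 1 was higher and 5 lower (median −0.15), and of the 11 genes of at least 1000 bp, 2 were higher and 5 lower (median −0.26). The same order held over all named genes with smaller values: medians were 0.10, 0.03 and −0.10 in the 3 classes, with 27.7%, 25.1% and 16.8% higher and 12.7%, 20.7% and 31.6% lower. Across the 45 genes the Spearman correlation of change with length was −0.60 (Pearson −0.59 on log2 length), against −0.23 over 4052 named genes, as a description, since the genes share arrays.

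The deviation of flor replicate 1 followed length too. Relative to the mean of the other flor replicates, it was higher by a median of 0.35 for the short genes of the set and differed by −0.40 for the longest class, and over all named genes by 0.33 and −0.09. When a smooth trend with length was taken out of every array, 12 genes were higher and 10 lower (23.2% and 22.5% over all features) and the Spearman correlation over the 45 genes was −0.45. All 5 complex IV calls held in that setting, COX7 at 0.75 (adjusted p = 0.00013) and COX4 at 0.26 (adjusted p = 0.019), as did those of QCR7 at 0.28 and QCR9 at 0.23 (adjusted p = 0.028 and 0.034) and NDE1 at −1.09 (adjusted p = 8.4e-06). DLD1 (adjusted p = 0.15) and SDH3 (adjusted p = 0.067) lost their calls, and NDE2 (0.32, adjusted p = 0.0080), ATP15 and HAP3 (−0.51, adjusted p = 0.00077) gained one. The part that length plays in the strain difference was not tested beyond this.

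**Figure D4:**
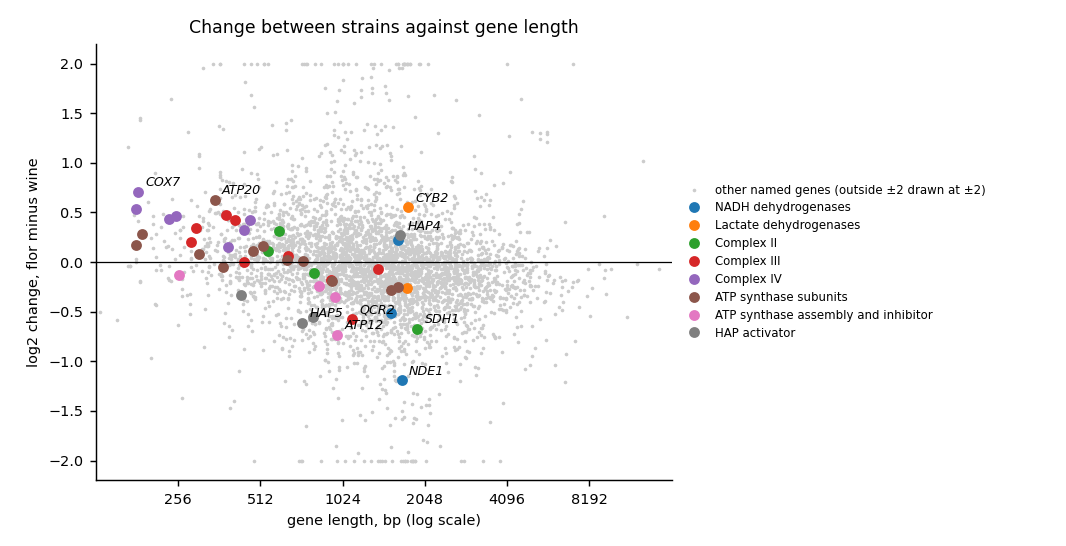
Log2 change (flor minus wine) against gene length in bp on a log axis, with the 45 genes coloured by complex and other named genes in grey (values outside ±2 drawn at the edge). Short subunit genes such as COX7 (0.71) and ATP20 (0.63) lie above 0 and long ones such as SDH1 (−0.67) and NDE1 (−1.19) below it, with CYB2 (0.55) and HAP4 (0.27) as long genes above 0.

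Other genes of respiration were listed by function, and 88 of 108 were measured. Among them 23 passed as higher and 29 as lower (15 to 24 and 19 to 37 with single arrays left out), with a median of −0.12 (−0.02 over all features). The 59.1% of these genes that passed in either direction stand beside 44.1% of all features, of which 20.5% were higher and 23.6% lower, and these background shares apply to each list below. Changes given below without the word fold are log2 changes. Among cytochrome c and the COX5 subunit, the isoforms known from low oxygen had the largest changes: COX5B was 9.46-fold higher, at 10.85 ± 0.04 against 7.60 ± 0.10, and CYC7 9.04-fold higher, at 12.33 ± 0.16 against 9.15 ± 0.20. Their aerobic counterparts CYC1 (0.39, adjusted p = 0.011) and COX5A (0.37, adjusted p = 0.016) were also higher, and neither passed without the length trend (adjusted p = 0.17 and 0.22). Without wine replicate 3, 2 genes of this list passed. Of 6 measured mitochondrially encoded subunits, COX2 (4.94-fold), COB (4.71-fold), COX1 (2.02-fold) and COX3 (0.44) were higher, and 3 passed without wine replicate 3. OLI1 reached the top of the measured range (15.88) on arrays of both strains and ATP6 lay near its bottom in both, so these values may not show a change.

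Heme synthesis, which makes the cofactor of the cytochromes, had 5 of 8 genes lower and none higher, against 23.6% lower over all features, with a median of −0.48 (4 to 6 lower with single arrays left out). HEM3 (porphobilinogen deaminase) was 1.90-fold lower, at 9.14 ± 0.17 in flor against 10.07 ± 0.04 in wine. HEM2, the enzyme before it, was 1.77-fold lower and HEM12 (uroporphyrinogen decarboxylase) 1.67-fold lower (adjusted p = 0.0013 and 0.00076). The others that passed, HEM13 and HEM15, had changes of −0.58 and −0.38. In ubiquinone synthesis 3 of 8 measured genes were lower, COQ1 (1.75-fold), COQ5 (1.39-fold) and COQ3 (1.34-fold), and none was higher. The 37.5% of this list that passed, all lower, stood beside 23.6% lower and 44.1% in either direction over all features. All 8 measured genes had negative changes. The same 3-of-8 count was found with each single array left out.

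Of 21 measured assembly factors of complex IV, 5 were higher and 6 lower, and the 52.4% that passed lay near the 44.1% of all features. COX15, which makes the heme A of complex IV, was 2.58-fold higher, at 11.91 ± 0.24 against 10.54 ± 0.06 (adjusted p = 3.4e-05). MSS51, which activates translation of the mitochondrial COX1 messenger, was 2.85-fold lower, at 7.65 ± 0.14 against 9.16 ± 0.06 (adjusted p = 3.6e-06). PET100, an assembly chaperone of complex IV, was higher by 0.53 (adjusted p = 0.030) and its call ended when wine replicate 1, 2 or 3 was left out (adjusted p = 0.058, 0.099 and 0.091). Without flor replicate 1 the change of PET100 was 0.32, and without the length trend 0.34. In this list 2 genes were higher without wine replicate 1 or 2 and 3 without wine replicate 3. The count of lower genes was 9 without flor replicate 1, 3 without flor replicate 2 or 3, 1 without wine replicate 1, and 2 without wine replicate 2 or 3. For complex III assembly 3 of 9 were higher, CBP1 (0.68) first, then CBP6 (0.61) and CBS1 (0.53), which act on the cytochrome b messenger or its translation, and 3 were lower, among them the Rieske protein translocase gene BCS1 (−0.38). Of these factors 1 was lower without wine replicate 1 and 2 without flor replicate 2, wine replicate 2 or wine replicate 3. CBP6 lost its call when wine replicate 2 or 3 was left out (adjusted p = 0.055 each).

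For complex II, the assembly factor gene SDH7 was higher (0.42) and TCM62 lower (−0.52) among 3 measured, and SDH7 lost its call without any 1 wine replicate (adjusted p = 0.063 to 0.090). The change of SDH7 was 0.26 without flor replicate 1 and 0.23 without the length trend. In the list of other ATP synthase subunits and factors, 1 of 10 was higher and 4 lower (7 lower without flor replicate 1). NCA3 was higher by 0.53, whereas STF2 changed by −0.63 and AEP2, needed to express the mitochondrial OLI1 gene, by −0.62. Of the carriers that supply the enzyme, the main ADP/ATP carrier gene PET9 (−0.54) and the phosphate carrier gene MIR1 (−0.39) were lower and the minor carrier gene AAC1 (0.53) higher. The PET9 call ended on leaving out wine replicate 1, 2 or 3 (adjusted p = 0.076, 0.080 and 0.088) and the MIR1 call on leaving out wine replicate 2 or 3 (0.16 and 0.11). Both passed with smaller changes without flor replicate 1, PET9 at −0.31 and MIR1 at −0.25. PET9 and AAC1 are related in sequence, and whether their probes separate them was not tested.

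Of other dehydrogenases, DLD3, a cytosolic relative of DLD1, was 2.78-fold lower and the proline oxidase gene PUT1 2.10-fold lower. The glycerol-3-phosphate dehydrogenase gene GUT2, which also feeds ubiquinone, was higher by 0.48 with overlapping strains (adjusted p = 0.044), and its call was lost without any single array other than flor replicate 1 (adjusted p = 0.056 to 0.16). Among 9 further regulators of respiration genes, HXK2 (3.40-fold) and MIG1 (3.10-fold), which take part in glucose repression, were higher, and ROX1, a repressor of hypoxic genes, was 1.38-fold lower (adjusted p = 0.0037). HAP1, the heme-responsive activator of cytochrome genes, had a change of −0.16 that did not pass (adjusted p = 0.36).

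**Figure D5:**
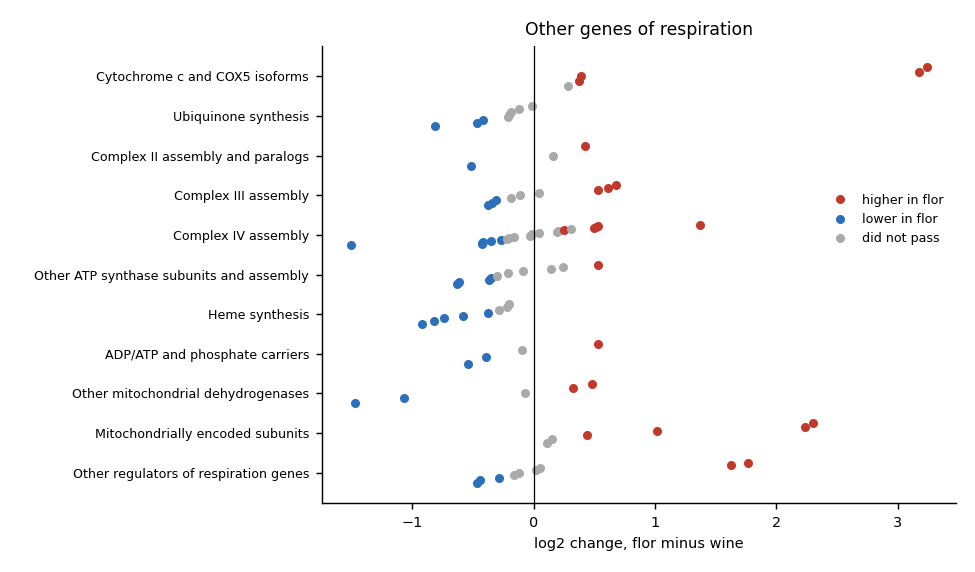
Log2 change (flor minus wine) of the other measured genes of respiration, 1 row per list, with points offset vertically for legibility. Red points were higher and blue points lower in the flor strain at an adjusted p under 0.05, and grey points did not pass. All 8 heme synthesis genes lie below 0, while COX5B (3.24) and CYC7 (3.18) lie farthest to the right.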

How the data were processed

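RNA from the 6 cultures was labelled with Cy3 and hybridised to one-colour Agilent arrays, per the labels' protocols. Analysis started from log2 intensities of 6227 probes that the authors deposited, from 5.29 to 15.88 with array medians of 8.33 to 8.35. That they are log2 and were normalized between arrays before deposit was read from the values. R 2.14.2 and limma are named, per the submitters' processing notes. How background, normalization and filters were handled upstream is not given in the sources used here. Changes are relative to the array as a whole, and a strain's sequence under a probe can affect its signal.

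Probes were named through the platform annotation, with 125 symbols updated through the R64 gene table. Probes of 1 gene were averaged and no intensity filter was applied. Strains were compared by a two-sided test (lmFit, then eBayes; limma 3.58.1, R 4.3.3) with Benjamini-Hochberg adjustment over all 6226 features. The test was checked on simulated data. Noise there was independent between genes and equal in both strains, without the wider flor spread and the length-linked deviation of flor replicate 1. Precision is limited by 3 arrays per strain, and p-values reflect only how these cultures varied. In both strains replicate 2 is labelled as a second technical replicate, whose first was not analysed here.

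The genes, lists and tests were chosen with earlier results of these data known. By rule, array values were given for all NADH dehydrogenase and HAP genes and for up to 4 genes per other complex with the largest changes that passed, and up to 3 genes per further list were named. COX4, ATP14, COX5A, COX3, HEM13, HEM15, BCS1, HAP1, FMC1, OLI1 and ATP6 were named after their values were seen. Promoter sequences were not used here, so a planned count of promoter motifs was not made. The alternatives were other scalings, filters on dim features, an intensity trend with a robust prior, array weights, a block for slide or for replicate number, slide 2 alone, each array left out, stricter thresholds, removal of a loess trend on log2 length (span 0.5), and named genes only.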

Additional observations from a re-analysis of the deposited data

How the results depend on the processing

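Of 21 calls among the 45 genes, none changed direction in any of the 20 alternatives, and 9 genes that did not pass did so in at least 1 of them. Most alternatives could not have reversed a call. The strains did not overlap for these 21 genes, so leaving arrays out keeps the direction. Stricter thresholds, the filters, the intensity trend and named genes only leave the log2 change itself unaltered. The counts were 11 higher and 10 lower, with 1276 and 1470 over all features. On slide 2 alone they were 4 and 4 (701 and 723 over all features), at an adjusted p under 0.01 they were 5 and 7 (841 and 920), against a log2 change of 0.5 they were 0 and 1 (297 and 222), and without the dimmest 50% of features 10 and 6 (705 and 838, of fewer features tested). For the 0 genes higher against a log2 change of 0.5, limma's ordinary test gave 11. With named genes only, 811 features were higher. With single arrays left out, 6 to 11 genes were higher and 7 to 11 lower, and 966 to 1502 and 1074 to 1777 over all features. The further lists had 23 genes higher and 29 lower in all, with 11 and 14 on slide 2 alone, 14 and 18 at an adjusted p under 0.01, 7 and 4 against a log2 change of 0.5, and 15 to 24 and 19 to 37 with single arrays left out (alternatives applied to these lists were chosen after seeing the data).

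The median of the 45 genes, 0.06, was −0.04 and so changed sign once the length trend was removed, was 0.09 without the dimmest 50%, and was 0.02 to 0.10 with single arrays left out. With the length trend removed the medians of complex III, complex II and HAP were 0.00, −0.08 and −0.55, those of the ATP synthase subunits and lactate dehydrogenases −0.06 and 0.26 (0.05 and 0.14 as reported), and that setting by construction removes any strain difference that follows length. On slide 2 alone complexes II and III had medians of −0.04 and 0.01, and without the dimmest 50% the HAP median was −0.03, over HAP3 and HAP4, since HAP2 and HAP5 were removed. With single arrays left out the medians ran from −0.59 to −0.37 for NADH dehydrogenases, 0.05 to 0.30 for lactate dehydrogenases, −0.04 to 0.02 for complex II, 0.02 to 0.12 for complex III, 0.32 to 0.50 for complex IV, −0.02 to 0.10 for ATP synthase subunits, −0.31 to −0.26 for its assembly genes and inhibitor, and −0.46 to −0.42 for HAP. Other causes of these shifts were not tested.

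With the replicate number as a block, 14 genes were higher and 12 lower. Over all features 22.4% were then higher and 25.4% lower, against 20.5% and 23.6% without the block. None of the 21 calls was lost, and QCR10, COX6, ATP2, ATP15 and HAP3 passed in addition. Same-numbered flor and wine arrays deviated from their strain means with correlations of 0.372, 0.228 and 0.051, and the labels state no shared source for equal numbers, so the numbers were not used to pair the samples and pairing stays untested. For flor replicates 1 and 2 the same-numbered wine array had the highest correlation. Flor replicate 3 deviated most like wine replicate 2 (0.186). Signal near background limits what ATP10 and ATP6 can show.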
